A study of Mus musculus with 8 samples.

Results

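Among 73400 merged regions of H4K12la signal in mouse brain, 5288 (7.2%) held a peak in every one of 8 peak lists. Peaks of all 8 lists were merged wherever they overlapped by at least 1 base, and a merged region was kept when it held a peak from each list. The regions were thus chosen by measured values, the peaks themselves. The presence of a peak, the scores and the peak widths in these regions are therefore described. A test is given only for differences between groups of libraries in how many bases the peaks covered. The rule did not use these differences. Peak extents do decide which peaks merge, so the covered bases are not independent of the rule.

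H4K12la is lactylation of histone H4 at lysine 12, one of a family of lysine acylations for which lactate-derived lactyl groups are the donor. Acyl marks on histone tails are typically found on the nucleosomes that flank active promoters and enhancers, and promoters of genes used by nearly every cell type are commonly rich in CpG dinucleotides. CUT&Tag maps such a mark by tethering a Tn5 transposase to an antibody, which cuts nearby DNA for amplification and sequencing.

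The study compared microglia, the resident macrophages of the brain, with all cells of the dissociated brain (total cells), each in 5XFAD and wild-type (WT) mice, and asked which genes carry the mark. Brains without cerebellum of perfused mice were dissociated and freed of myelin debris, and microglia were taken from that suspension with beads against CD11b. There were 2 libraries each of microglia 5XFAD, microglia WT, total cells 5XFAD and total cells WT. 5XFAD mice, a model of Alzheimer disease, carry mutated human transgenes, APP among them, driven by the mouse Thy1 promoter, which acts mainly in neurons, whereas WT mice carry none. Age is not among the labels used here. Total cells contain microglia as well, so that fewer cells of a type and less mark per cell cannot be told apart. Nothing in the labels says that replicates came from separate animals, so p-values measure only the spread between these libraries, which may be technical.

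The lists held 29947 and 41783 peaks in 5XFAD microglia, 22300 and 33500 in WT microglia, 32967 and 22807 in 5XFAD total cells and 25271 and 22543 in WT total cells. Depth is unknown because read counts are not part of the lists, and a missing peak means only that none was listed. No library without antibody was analysed here, and a peak shared by all lists was not set against such a background. Of 14 microglia markers with a known start site, 9 to 13 had a peak within 2 kb of it in the 4 microglia lists, against 0 to 6 in the 4 total cell lists. The counts were 1 to 2 of 11 neuron markers in microglia lists and 2 to 3 in total cell lists, 2 to 3 and 1 to 3 of 8 astrocyte markers, 1 to 2 and 0 to 1 of 8 oligodendrocyte markers, 1 to 2 and 0 to 2 of 8 vascular markers, and 1 to 2 and 0 to 1 of 12 markers of other leukocytes.

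Promoters show what kind of sequence lay under the shared peaks. Sequences are 300-base windows of the RefSeq promoter table (GRCm38.p6), running 5′ to 3′ from 250 bases before to 50 bases after each gene's start site, and capitals mark a match to one of 10 short motifs on either strand. The first set holds the start sites with the highest mean score percentile. They belong to Arl14ep, an effector of an ARF-like GTPase, at chr2:106974348-106974647 (minus strand), Ddx60, an interferon-inducible helicase of antiviral defence, at chr8:61927837-61928136 (plus strand), and Gtf3c3, a subunit of the RNA polymerase III factor TFIIIC, at chr1:54438977-54439276 (minus strand).
Arl14ep: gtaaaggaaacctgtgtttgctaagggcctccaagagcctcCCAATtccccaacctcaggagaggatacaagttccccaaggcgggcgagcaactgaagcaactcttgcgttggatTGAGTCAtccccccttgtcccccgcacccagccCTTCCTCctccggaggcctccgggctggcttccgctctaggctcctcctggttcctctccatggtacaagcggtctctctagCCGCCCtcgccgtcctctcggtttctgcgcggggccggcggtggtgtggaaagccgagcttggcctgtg
Ddx60: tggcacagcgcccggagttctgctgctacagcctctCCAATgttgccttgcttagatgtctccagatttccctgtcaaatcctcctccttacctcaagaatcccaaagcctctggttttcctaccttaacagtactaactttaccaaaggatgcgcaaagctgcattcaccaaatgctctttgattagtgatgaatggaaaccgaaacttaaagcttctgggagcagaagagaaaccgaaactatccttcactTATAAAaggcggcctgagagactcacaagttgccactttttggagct
Gtf3c3: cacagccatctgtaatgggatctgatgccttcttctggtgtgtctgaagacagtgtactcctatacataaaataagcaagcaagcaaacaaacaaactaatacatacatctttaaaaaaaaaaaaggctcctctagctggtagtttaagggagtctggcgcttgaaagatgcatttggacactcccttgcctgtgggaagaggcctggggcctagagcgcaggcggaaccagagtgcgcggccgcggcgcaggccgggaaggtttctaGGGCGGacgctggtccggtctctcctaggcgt
The next set holds start sites in regions that were wider in microglia than in total cells. They belong to Ndufs8, a subunit of respiratory complex I, at chr19:3912725-3913024 (minus strand), Mybph, a myosin-binding protein, at chr1:134193198-134193497 (plus strand), and Ltc4s, which makes the lipid mediator leukotriene C4, at chr11:50238483-50238782 (minus strand).
Ndufs8: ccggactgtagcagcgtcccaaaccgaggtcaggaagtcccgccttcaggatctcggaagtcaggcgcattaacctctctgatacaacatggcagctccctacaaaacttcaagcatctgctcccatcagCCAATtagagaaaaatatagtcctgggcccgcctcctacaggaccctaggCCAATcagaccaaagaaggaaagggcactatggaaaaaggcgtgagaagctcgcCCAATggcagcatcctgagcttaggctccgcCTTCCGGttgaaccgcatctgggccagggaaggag
Mybph: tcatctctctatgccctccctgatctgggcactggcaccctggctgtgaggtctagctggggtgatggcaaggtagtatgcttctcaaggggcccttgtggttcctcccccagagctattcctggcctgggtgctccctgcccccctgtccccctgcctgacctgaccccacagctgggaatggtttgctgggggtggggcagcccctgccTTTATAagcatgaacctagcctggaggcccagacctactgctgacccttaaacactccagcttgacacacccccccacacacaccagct
Ltc4s: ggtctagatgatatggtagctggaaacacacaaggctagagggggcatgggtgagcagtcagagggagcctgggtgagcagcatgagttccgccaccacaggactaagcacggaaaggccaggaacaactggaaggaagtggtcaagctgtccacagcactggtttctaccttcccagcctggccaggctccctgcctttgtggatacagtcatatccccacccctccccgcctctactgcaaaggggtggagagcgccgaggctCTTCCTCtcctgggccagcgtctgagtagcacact
The last set holds start sites whose regions were narrower in microglia. They belong to Zdhhc17, a palmitoyltransferase, at chr10:111009960-111010259 (minus strand), and Glrx2, a mitochondrial glutaredoxin, at chr1:143739099-143739398 (plus strand).
Zdhhc17: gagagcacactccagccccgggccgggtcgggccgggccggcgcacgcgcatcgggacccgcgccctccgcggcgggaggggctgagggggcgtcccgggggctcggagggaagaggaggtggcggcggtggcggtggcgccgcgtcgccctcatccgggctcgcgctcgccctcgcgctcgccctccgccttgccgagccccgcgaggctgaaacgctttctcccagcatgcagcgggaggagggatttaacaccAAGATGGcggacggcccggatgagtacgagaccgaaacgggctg
Glrx2: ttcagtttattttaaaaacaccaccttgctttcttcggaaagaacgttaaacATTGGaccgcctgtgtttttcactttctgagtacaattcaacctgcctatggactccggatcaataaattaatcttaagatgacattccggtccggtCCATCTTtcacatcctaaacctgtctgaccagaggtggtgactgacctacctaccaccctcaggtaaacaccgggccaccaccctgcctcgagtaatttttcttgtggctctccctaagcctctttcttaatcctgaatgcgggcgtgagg
The capitals in these windows are GC boxes (GGGCGG) in Arl14ep and Gtf3c3, CCAAT boxes (CCAAT) in Arl14ep, Ddx60, Ndufs8 and Glrx2, TATA boxes (TATAAA) in Ddx60 and Mybph, the ETS letters CCGGAAG in Ndufs8, the PU.1-type ETS letters GAGGAAG in Arl14ep and Ltc4s, the YY1 letters AAGATGG in Zdhhc17 and Glrx2, and the AP-1 letters TGANTCA in Arl14ep. CpG content ran from a ratio of observed to expected CpG of 0.00 in Mybph to 1.03 in Zdhhc17. The Mybph window thus held no CpG, in a region that every list marked.

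As a group, the promoters of these regions were CpG-rich. The median CpG ratio was 0.759 in the 2953 promoter windows whose start site lay in a region of all 8 lists, 0.743 in the 5271 windows marked by 1 to 7 lists and 0.336 in the 13038 windows in no region. A ratio over 0.6, a common limit for CpG islands, was met by 74.8% of the windows of all 8 lists, 68.8% of those of 1 to 7 lists, 32.9% of those in no region and 47.6% of all 21262 windows. The median GC content was 60.3%, 60.3% and 52.7% in the same 3 classes. In CpG and GC content, marked promoters thus differed from unmarked ones more than those of all 8 lists differed from those of fewer.

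Motif letters were counted on both strands in the same windows. The ETS letters CCGGAAG stood in 23.5% of windows of all 8 lists, 19.0% of those of 1 to 7 lists, 5.82% of those in no region and 11.6% of all windows. The cyclic AMP response element letters TGACGTC stood in 7.62%, 5.08%, 2.49% and 3.84%, and the NRF1 letters GCGCATG in 7.82%, 7.66%, 2.95% and 4.80%. GC boxes stood in 62.5%, 62.7%, 35.8% and 46.2%. The TATA box ran the other way, at 5.15%, 7.11%, 16.5% and 12.6%. AP-1 letters (TGANTCA) stood in 4.27%, 5.07%, 8.38% and 6.99%, CCAAT boxes in 39.7%, 39.2%, 37.5% and 38.2%, YY1 letters in 8.03%, 7.34%, 5.39% and 6.24%, E-boxes (CACGTG) in 9.08%, 11.2%, 6.2% and 7.84%, and PU.1-type ETS letters in 12.3%, 14.6%, 13.5% and 13.6%. These letters are short and partly follow base composition, and a match is a description of the window, not a site of binding.

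Transcription start sites were far more common in these regions than in regions of fewer lists. Of the 5078 regions on chromosomes for which start sites were at hand, 2355 (46.4%) held a coding start site, against 29.1% of regions in 7 lists, 1.86% of regions in 1 list and 9.72% of all merged regions. Within 2 kb the share was 50.9% (2587 regions, 95% exact binomial interval 49.6% to 52.3%), against 35.6% in 7 lists and 17.1% of all. Since longer regions are more likely to span a start site, midpoints were used as well. The midpoint lay within 1 kb of a start site in 48.3% of regions of all 8 lists, against 32.1% in 7 lists and 6.39% in 1 list, and the median distance was 1.69 kb, 13.6 kb and 32.1 kb. The share rose at each added list. Start sites were known for 17491 of 21883 coding genes and for none on chromosome 18, so shares are lower bounds for a full annotation.

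**Figure D1:**
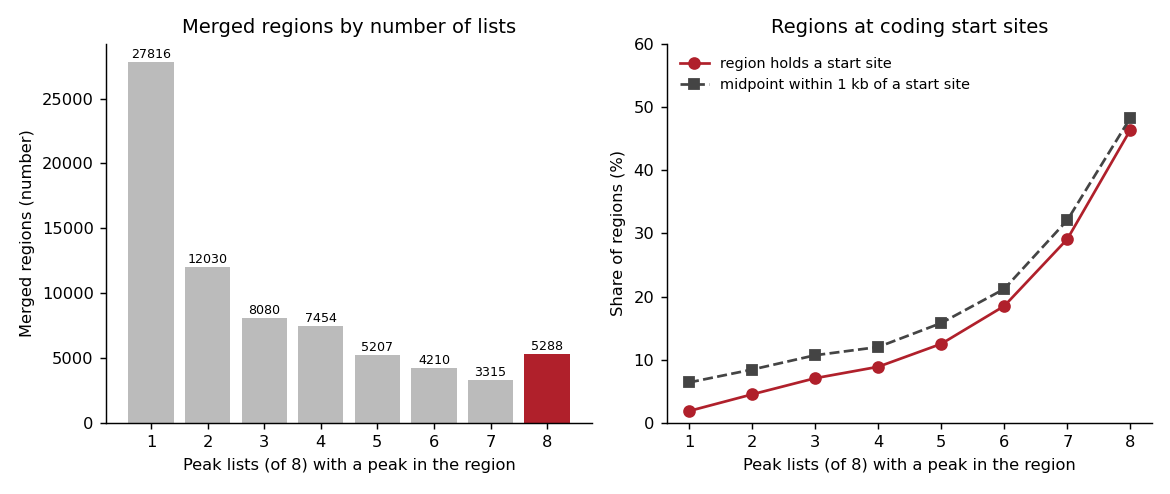
Left, the number of merged regions (y axis) by how many of the 8 peak lists have a peak in the region (x axis), with the 5288 regions of all 8 lists in red. Right, the share of regions (%) that hold a coding start site (red) or have their midpoint within 1 kb of one (black), which reach 46.4% and 48.3% at 8 lists, from 1.86% and 6.39% at 1 list.

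Over all 5288 regions, 2587 (48.9%) lay within 2 kb of a coding start site, 720 (13.6%) within 2 kb of another end of a coding gene, 1378 (26.1%) inside a coding gene, 238 (4.50%) in a non-coding gene and 354 (6.69%) outside annotated genes, and 11 (0.208%) were mitochondrial or on unplaced contigs. In regions of 1 list, 60% lay inside coding genes and 16.5% outside annotated genes. Exons, introns and UTRs within genes were not used here. The class of another gene end counted either boundary without strand, so it can include start sites that were not known, as on chromosome 18. The 2598 coding genes with a start site in a region of all 8 lists were 14.9% of those known. Genes that share a divergent promoter, with start sites on opposite strands at most 1 kb apart, were 487 (18.7%) of these 2598 genes and 1483 (8.48%) of all 17491. One region held a divergent pair in 227 cases. Chromosome X held 88 regions, 9.11 per 100 coding genes, against 17.0 to 35.8 on each autosome other than 18. It held few merged regions of any kind (1205). The 88 were 7.3% of these, beside 7.2% over all merged regions and 5.86% to 8.67% on autosomes. Chromosome Y held none of the regions and only 24 merged regions of any kind. Neighbouring regions were a median of 124 kb apart, and 328 of 5257 gaps (6.24%) were within 10 kb.

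These regions were 338 to 5264 bases long, with a median of 1353. Each list put exactly 1 peak in 3664 (69.3%) of them, and 4737 (89.6%) had at least 1 base that all 8 lists covered, with a median of 267 such bases. In the other 551, such as those at the starts of Hdac4, a histone deacetylase, and Stk17b, a kinase, no base was covered by all lists. Peaks in these regions made up 18.9% and 13.2% of the 5XFAD microglia lists, 25.2% and 16.6% of the WT microglia lists, 17.9% and 25.8% of the 5XFAD total cell lists and 23.0% and 25.8% of the WT total cell lists. By the authors' score, the median peak of a member region ranked above 73.6% to 88.2% of its own list. At the edge of the rule, regions of 7 lists had median percentiles of 56.4 to 73.9, against 73.6 to 88.2 in regions of all 8. Of the 3315 regions of 7 lists, the missing list was total cells WT replicate 2 in 1048 and microglia 5XFAD replicate 2 in 20, the most and the fewest.

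At start sites inside these regions, peaks reached further into the gene than upstream. Only such start sites were used, so high coverage at the start itself follows in part from that choice. Positions were taken at 2096 regions with a single start gene. Where such a gene had more than 1 start site in the region, the one furthest upstream was used. Further starts of the gene then lie downstream, which favours reach into the gene, and its part was not tested. The start base itself was covered in 79.1% and 86.6% of regions in 5XFAD microglia and 76.2% and 86.9% in WT microglia. In total cells it was covered in 88.8% and 81.5% in 5XFAD and 80.4% and 77.6% in WT. At 500 bases after the start, coverage was 50% and 65.0% in 5XFAD microglia, 40.9% and 56.4% in WT microglia, 37.2% and 26.9% in 5XFAD total cells and 24.9% and 21.3% in WT total cells. At 500 bases before it, the values were 36.5% and 50.6%, 26.6% and 39.9%, 20.3% and 12%, and 13.9% and 10.6% in the same libraries. The downstream value was the higher one in all 8 lists. At the start base the preparations overlapped, whereas 500 bases after it every microglia list lay above every total cell list, with microglia WT replicate 1 closest to them. The peak reached further after the start than before it in 58.3% to 62.5% of these regions in each list.

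**Figure D2:**
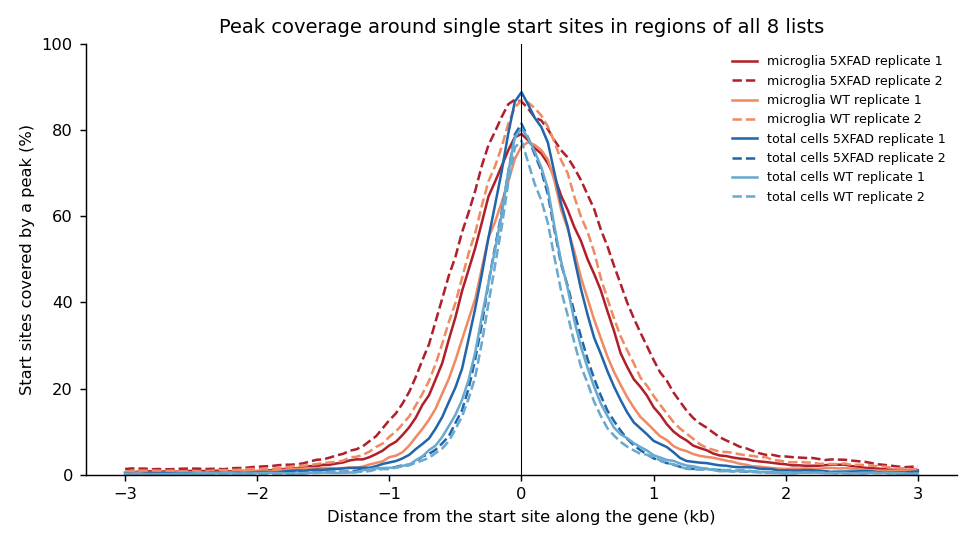
Share of 2096 start sites covered by a peak (y axis, %) by distance along the gene from the start (x axis, kb, upstream to the left), 1 line per library. Each is the start site furthest upstream in a region with a single start gene. The 8 lines meet near the start at 76.2% to 88.8%, and the microglia lines are wider on both sides.

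The highest scores belonged to repeated and organelle sequence rather than to ordinary genes. All 3 mitochondrial regions ranked at the top of every list, with scores of 3477 to 14778 in microglia lists and 2204 to 5404 in total cell lists. Mitochondrial DNA carries no histones, and what part of the signal there came from the mark was not tested. The region at chr17:39843143-39846665 over Rn18s-rs5, a ribosomal RNA sequence, also ranked at the top and covered 3069 and 3195 bases in 5XFAD microglia, 3347 and 3516 in WT microglia, 3352 and 3521 in 5XFAD total cells and 3260 and 3226 in WT total cells. At an end of Lars2, which encodes the mitochondrial leucyl-tRNA synthetase, the region chr9:123461798-123462178 covered 379 and 381 bases in 5XFAD microglia, 369 and 379 in WT microglia, 381 and 381 in 5XFAD total cells and 381 and 358 in WT total cells. Its edges were thus nearly the same in every list, and its mean percentile was 99.9 ± 0.125 (SD, n = 8). In the median region, by contrast, the widest list covered 3.25 times as many bases as the narrowest.

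Among chromosomal regions the next rank was held by a region inside Zfp407, a zinc finger gene, and then came regions at or beside start sites. They were those of Arl14ep, Ddx60 and Gtf3c3 shown above, of Sp1, the zinc finger factor that binds GC boxes, of Casp8, the initiator protease of death-receptor signalling, of Birc3, an inhibitor of apoptosis, and of Acyp2, an acylphosphatase. Each had a mean percentile of 99.7 over the 8 lists. The Ddx60 region covered 1379 and 1556 bases in 5XFAD microglia, 1337 and 1242 in WT microglia, 1046 and 1038 in 5XFAD total cells and 983 and 927 in WT total cells. Casp8 covered 2021 and 2066, 1829 and 2017, 1052 and 854, and 917 and 629 bases in the same groups. Every microglia list was thus wider than every total cell list at both, as in 2093 (39.6%) of the 5288 regions. In the fit described below, which centres each library, Ddx60 was not called (-0.32 ± 0.19, log2, SE, limma adjusted p = 0.221). The longest stretches common to all 8 lists, beside mitochondrial, ribosomal and unplaced sequence, lay at Cyp4v3 (1488 bases), a cytochrome P450, at Wls (1454 bases), which carries Wnt proteins to the cell surface, over Mx2 (1367 bases), a relative of the interferon-induced Mx GTPases annotated here as non-coding, in Lpp (1353 bases) and Sfi1 (1294 bases), and over the non-coding Gm41693 (1584 bases). The shortest lay at Pacs1 (1 base), near Ccdc88b (2 bases), near Trabd (3 bases), at Thap7 (4 bases) and near Nepro (4 bases).

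Several gene groups lay at shared regions more often than coding genes as a whole, and cell-type markers seldom did. How widely these genes are used was not measured. Over all coding genes, 2872 of 17491 (16.4%) had their start site within 2 kb of a region of all 8 lists, and 7585 (43.4%) were near no region of any list. Zinc finger genes named Zfp reached 152 of 329 (46.2%), enzymes of histone acylation 8 of 17 (47.1%, and 4 of 17 with lists cut to equal length), interferon response genes 6 of 15 (40%), heat shock and DnaJ chaperones 23 of 60 (38.3%), mitochondrial ribosomal proteins 26 of 69 (37.7%), DNA repair genes 8 of 22 (36.4%), TCA cycle and respiratory enzymes 7 of 20 (35.0%) and aminoacyl-tRNA synthetases 9 of 27 (33.3%). Ubiquitin-specific proteases stood at 12 of 38 (31.6%), splicing factors at 24 of 79 (30.4%), Rab GTPases at 14 of 48 (29.2%), RNA polymerase II with its general factors and Mediator at 17 of 71 (23.9%), proteasome subunits at 7 of 32 (21.9%), cytosolic ribosomal proteins at 13 of 62 (21.0%) and glycolysis and lactate genes at 4 of 21 (19.0%). The last 3 were close to the share of all genes. Microglia markers stood at 1 of 14, through a region over Cd68 that also holds the start of Mpdu1. None of 11 neuron, 8 astrocyte, 8 oligodendrocyte, 8 vascular or 12 other leukocyte markers reached a region of all lists, nor did any of 14 genes of other tissues, 22 Hox genes or 940 olfactory receptors.

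The enzymes that write and erase histone acyl groups included the acetyltransferases Kat2b, Kat5, Kat6b and Kat8 and the deacylases Hdac2, Hdac4, Sirt2 and Sirt6 at their start sites. Ep300, an acyltransferase and coactivator, held a region near an end of its gene. Among glycolysis genes were Hk1, the first enzyme of the pathway, Pfkl, a subunit of phosphofructokinase, Pfkfb3, which makes its activator, and Ldhb, a subunit of lactate dehydrogenase. The interferon genes were Ddx60, Ifih1, a sensor of viral RNA, Ifit1, Oas1a, Stat2 and Trim25. Of the mitochondrial energy genes, the list members were Cycs, Dld, Fh1, Ogdh, Sdha, Sdhd and Uqcrc1. Cycs, cytochrome c, covered 1259 and 1466 bases in 5XFAD microglia, 1292 and 1474 in WT microglia, 849 and 931 in 5XFAD total cells and 846 and 733 in WT total cells, with a mean percentile of 97.9 ± 0.965 (SD, n = 8).

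Peaks in these regions were wider in microglia than in total cells. The median region covered 921.5 and 1195.5 bases in 5XFAD microglia, 779 and 1021 in WT microglia, 717 and 549 in 5XFAD total cells and 538 and 469 in WT total cells, so that no microglia list overlapped the total cell lists. The shift between the preparations was 0.79 on the log2 scale. Every microglia list covered more bases than every total cell list in 2093 regions (39.6%), and the reverse held in 30 (0.567%). Peak width also ran through the whole lists, whose median peak was 629 and 735 bases in 5XFAD microglia, 580 and 647 in WT microglia, 366 and 312 in 5XFAD total cells and 318 and 287 in WT total cells. Width can move with sequencing depth, which is unknown here, and its part was not tested.

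Against that shift, single regions differed. Log2 covered bases were centred on each library's median over the 5288 regions and fitted with limma over 10463 merged regions that had a peak in at least 6 lists. At a Benjamini-Hochberg adjusted p under 0.05, 639 of the 5288 (12.1%) were wider in microglia than the shift, against 16.2% of all regions fitted, and 617 (11.7%) were narrower relative to the shift, against 9.70%. Centring used the median of these same regions, which sets the balance of wider and narrower calls among them, so the shares are given side by side only. The 617 had a median change of -0.04 without centring, and 367 of them covered fewer bases in microglia outright. Without centring the calls were 2574 wider and 15 narrower. With 1 library left out, the wider and narrower calls were 393 and 266 without microglia 5XFAD replicate 1, 412 and 306 without microglia 5XFAD replicate 2, 500 and 349 without microglia WT replicate 1 and 474 and 356 without microglia WT replicate 2.

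**Figure D3:**
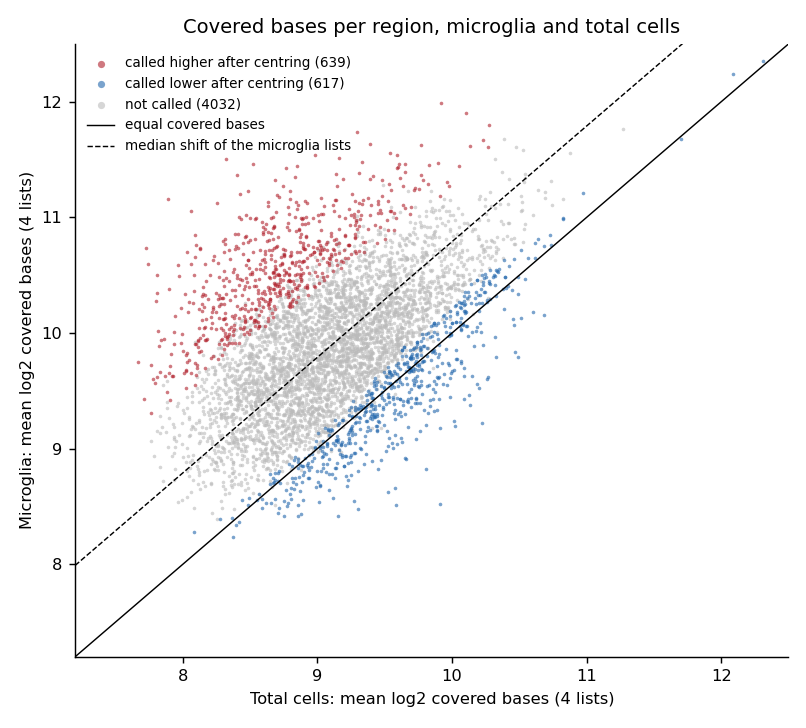
Mean log2 covered bases of each of the 5288 regions in 4 microglia lists (y axis) and 4 total cell lists (x axis). Most points lie above the solid line of equality and around the dashed line of the 0.79 shift. Red points (639) were called wider than the shift, and blue points (617) narrower relative to it, of which 367 covered fewer bases in microglia without centring.

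Regions wider in microglia lay within genes more often than at their starts. They held a start site in 24.0% of cases (148 of 617), against 48.6% of the relatively narrower regions (285 of 586) and 49.5% of those not called (1922 of 3886), and 44.4%, 22.0% and 23.8% of the 3 classes lay inside a coding gene. Their median length was 1972 bases, against 1120 in the relatively narrower regions. The median wider region covered 1437 and 1833 bases in 5XFAD microglia, 1256 and 1640 in WT microglia, 647 and 414 in 5XFAD total cells and 336 and 307 in WT total cells. The lengths and these medians come from the same peaks that decide the call, so they are no separate result.

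The largest difference was at Acvrl1, which encodes a type I receptor of the TGF-beta family. Peaks near an end of this gene (chr15:101143108-101145965) covered 2262 and 2858 bases in 5XFAD microglia, 1732 and 2426 in WT microglia, 200 and 193 in 5XFAD total cells and 194 and 425 in WT total cells. The groups did not overlap, and the change was 2.48 ± 0.28 beyond the shift (log2, SE, limma adjusted p = 0.000492). The shortest coverage over the 5288 regions was 279 and 289 bases in 5XFAD microglia and 274 and 281 in WT microglia. It was 195 and 177 bases in 5XFAD total cells and 183 and 172 in WT total cells. Most Acvrl1 values in total cells lay near these minima, and how far they bound the size of a change was not tested. Inside Gcnt2, a glycosyltransferase of blood group I antigen synthesis, the region covered 2862 and 3234, 2708 and 2882, 925 and 219, and 237 and 219 bases in the same order of groups, a change of 2.40 ± 0.31 (limma adjusted p = 0.00085). Total cells 5XFAD replicate 1 was the widest of the total cell lists there. Others among the 10 largest were at Hps4 (2.23 ± 0.24), a subunit of a complex needed for lysosome-related organelles, Naa60 (2.21 ± 0.21), an N-terminal acetyltransferase, Ppm1h (2.18 ± 0.30), a phosphatase acting on Rab proteins, Ldlrad4 (2.16 ± 0.23), a restraint on TGF-beta signalling, Rapgef1 (2.09 ± 0.29), an exchange factor for Rap1, Hnrnpl (2.07 ± 0.24), a splicing regulator, and Mroh1 (1.97 ± 0.22), with limma adjusted p of 0.000433 to 0.000995. All 10 had no overlap between microglia and total cell lists, and all stayed called without centring. They were picked as the largest called changes, so their separation is no support. Every microglia list covered more bases than every total cell list in 39.6% of the 5288 regions.

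The 3 microglia markers that held a shared region were wider in microglia. Spi1, which encodes the myeloid factor PU.1, held a region at a boundary of the gene. Its start site was not known here, so whether this boundary is the start was not resolved. The region covered 2702 and 2928 bases in 5XFAD microglia, 2293 and 3207 in WT microglia, 1049 and 273 in 5XFAD total cells and 249 and 501 in WT total cells (1.88 ± 0.33, limma adjusted p = 0.00322). The Cd68 region, over the start of a lysosomal glycoprotein of macrophages and of Mpdu1, covered 2742 and 3349, 2425 and 3508, 764 and 376, and 521 and 437 bases in the same groups (1.77 ± 0.19, limma adjusted p = 0.000447). Inside Sall1, a transcription factor that marks microglia in the brain, the change was 0.80 ± 0.21 (limma adjusted p = 0.0197). The region inside Camk2a, a kinase of excitatory neurons, was also wider in microglia, at 1288 and 1591, 1001 and 1475, 694 and 455, and 390 and 334 bases (0.76 ± 0.19, limma adjusted p = 0.0157). It was the one neuron marker with a shared region, and its coverage did not overlap between the preparations.

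Among the promoters shown above, the region of Ndufs8, which also reaches into Aldh3b1, covered 1550 and 1894 bases in 5XFAD microglia, 1661 and 1688 in WT microglia, 449 and 332 in 5XFAD total cells and 201 and 204 in WT total cells (1.81 ± 0.21, limma adjusted p = 0.000567). The Mybph region covered 2867 and 2983, 2142 and 3261, 575 and 455, and 615 and 282 bases in the same groups (1.81 ± 0.22, limma adjusted p = 0.000618). At Ltc4s the values were 1923 and 1746, 1286 and 1569, 296 and 394, and 248 and 190 bases (1.78 ± 0.25, limma adjusted p = 0.00106). Microglia and total cell lists did not overlap at any of these 3 starts, which were picked by their large called changes, so that separation is no support. Promoter windows in regions wider in microglia (191 windows) held E-box letters in 15.7% and cyclic AMP response element letters in 13.1%, against 5.92% and 7.04% of the 355 windows in relatively narrower regions and 9.08% and 7.62% of all windows in shared regions. PU.1-type ETS letters stood in 13.6% and 10.1%. These shares rest on 30, 25 and 26 windows in the wider class and were not tested.

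Of the 10 regions most narrowed relative to the shift, 5 held a start site, among them Zdhhc17 and Glrx2. The Zdhhc17 start region covered 280 and 296 bases in 5XFAD microglia, 536 and 396 in WT microglia, 787 and 861 in 5XFAD total cells and 909 and 568 in WT total cells (-1.86 ± 0.27, limma adjusted p = 0.00129). That of Glrx2 covered 313 and 764, 418 and 426, 999 and 935, and 997 and 694 bases in the same groups (-1.77 ± 0.26, limma adjusted p = 0.0013, with microglia 5XFAD replicate 2 above the lowest total cell list). Others were Stard13 (-1.79 ± 0.42), a GTPase-activating protein, Tbc1d9b (-1.71 ± 0.23), Arl10 (-1.69 ± 0.24), the gamma-protocadherin cluster on chromosome 18 (-1.61 ± 0.23), whose genes encode neuronal adhesion proteins and overlap there so that they cannot be told apart, B3glct (-1.61 ± 0.20), a glucosyltransferase, Tsc22d2 (-1.57 ± 0.21) and a region near Zbtb38 (-1.54 ± 0.23), with limma adjusted p of 0.000693 to 0.0116. Without centring, the change stayed below 0 in all 10 and stayed called in all but Stard13 (limma adjusted p = 0.0796). The Lars2 region was called narrower relative to the shift (-0.78 ± 0.22, limma adjusted p = 0.0247, but 0.01 without centring) although its covered bases hardly varied, as given above.

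**Figure D4:**
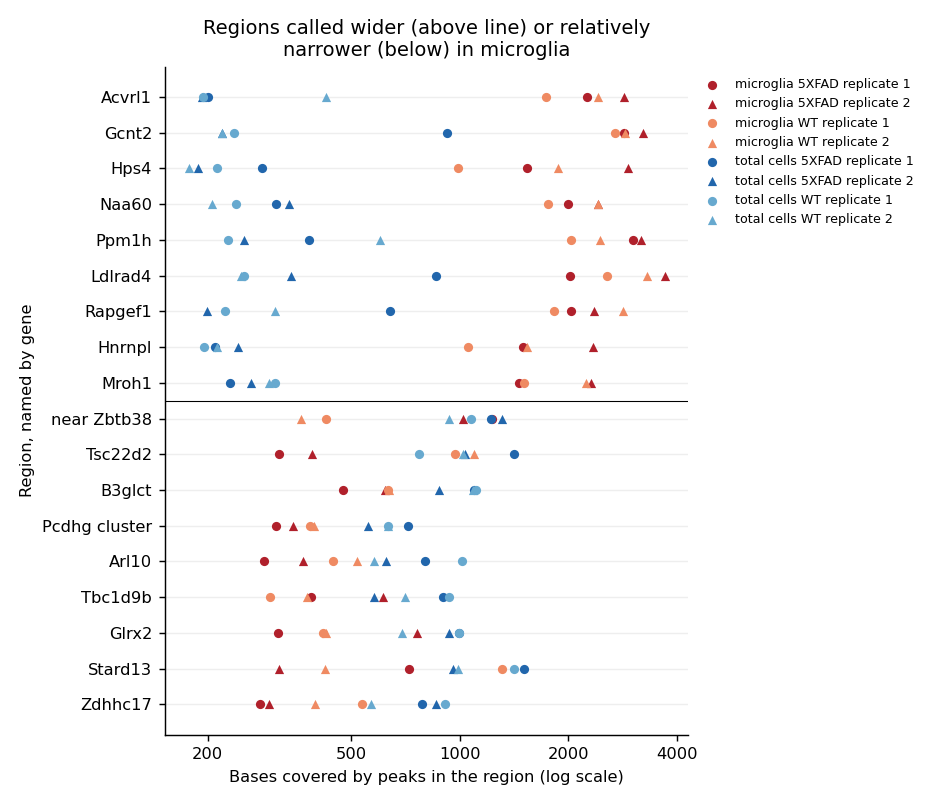
Bases covered by peaks (x axis, log scale) in each of the 8 libraries for regions among the 10 most widened in microglia beyond the 0.79 shift (above the line) and the 10 most narrowed relative to it (below the line). In the upper regions every microglia point (red and orange) lies right of every total cell point (blue), and in the lower regions they lie mostly to the left.

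Within the gene groups, regions in or over a coding gene numbered 4519, of which 511 were wider in microglia and 532 relatively narrower. Zfp genes held 207 regions, with 10 wider and 32 relatively narrower. The largest relative narrowing was at Zfp407 (-1.31 ± 0.31), Zfp9 (-1.28 ± 0.27) and an internal region of Zfp277 (-1.26 ± 0.25), at -0.52, -0.50 and -0.48 without centring, while another region inside Zfp277 was the most widened (1.5 ± 0.19). Zfp788 was called relatively narrower with 1136 and 1195 bases in 5XFAD microglia, 1120 and 1196 in WT microglia, 1173 and 1164 in 5XFAD total cells and 1131 and 791 in WT total cells (-0.64 ± 0.19, limma adjusted p = 0.0289, but 0.14 without centring). Among the gene lists, 21 of 52 regions called relatively narrower had a change above 0 without centring, and none of 40 called wider turned. Coverage at Zfp788 was alike in 7 lists and lower in total cells WT replicate 2. Ubiquitin-specific proteases had 2 wider and 7 relatively narrower of 22, and splicing factors 6 wider and none narrower of 29.

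Regions of the histone acylation enzymes numbered 13, of which 4 were wider and 1 relatively narrower. Sirt2, a deacylase whose start lies beside that of Nfkbib, covered 1674 and 1787 bases in 5XFAD microglia, 1725 and 1725 in WT microglia, 387 and 361 in 5XFAD total cells and 290 and 315 in WT total cells (1.58 ± 0.21, limma adjusted p = 0.000954). Sirt6, beside Ankrd24, covered 1615 and 2131, 1800 and 2007, 409 and 276, and 740 and 300 bases (1.45 ± 0.25, limma adjusted p = 0.00258), and Kat5 and an internal region of Kat2b were wider by 0.75 ± 0.21 and 0.84 ± 0.24. Ep300 was relatively narrower (-0.92 ± 0.30, limma adjusted p = 0.0436, and -0.13 without centring), with 1367 and 1559, 373 and 1601, 1365 and 1129, and 1144 and 1040 bases, so that microglia WT replicate 1 alone was low. In glycolysis, 2 of 6 regions were relatively narrower and none wider. They were an internal region of Hk1 (-1.09 ± 0.21, limma adjusted p = 0.00444) and the start of Pfkl (-0.83 ± 0.25, limma adjusted p = 0.0293), at -0.30 and -0.04 without centring (limma adjusted p = 0.177 and 0.903). Of 11 interferon regions, 2 were wider and none relatively narrower, among them Usp18 (1.01 ± 0.23), a protease that removes ISG15. Of 12 regions in TCA and respiratory genes 1 was called, inside Suclg2 (1.24 ± 0.24, limma adjusted p = 0.00514).

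In microglia, genotype did not move any shared region past the threshold. No region was called higher or lower in 5XFAD than in WT microglia, against 0.00% of all 10463 fitted in either direction, while 183 and 153 of the 5288 had an unadjusted p under 0.05 (limma). The 2 groups differed by a shift of 0.23 in log2 covered bases. The smallest p belonged to a region beside Ppp5c, a serine-threonine phosphatase, with 1796 and 2364 bases in 5XFAD microglia against 367 and 494 in WT microglia (2.04 ± 0.33, limma adjusted p = 0.169). At the start of Setd7, a lysine methyltransferase, the values were 1297 and 1283 bases in 5XFAD against 325 and 302 in WT microglia (1.81 ± 0.32, limma adjusted p = 0.199). Frmd4a, a scaffold of epithelial polarity, had 552 and 601 bases in 5XFAD against 1962 and 2242 in WT microglia (-2.10 ± 0.37, limma adjusted p = 0.199). These 3 were picked by their small p, which favours close replicates and genotypes that do not overlap, so their separation is no support. None passed, and without total cells WT replicate 2 the calls were 1 higher and 2 lower. The others with the smallest p were Sumf1, near Lsm14a and Cnot4 on the higher side and Tsc22d2, Cyld, Cnbp and Nr1d2 on the lower side, with changes of 1.47 to 1.67 and of -1.85 to -1.49 and limma adjusted p of 0.176 to 0.266.

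In total cells, more regions were wider in 5XFAD than narrower. After centring, which removed a shift of 0.32, 63 of the 5288 (1.19%) were called higher in 5XFAD, against 1.03% of all fitted, and 12 (0.227%) lower, against 0.182%. The median of the 63 was 1123 and 875 bases in 5XFAD total cells against 254 and 239 in WT total cells. The same 63 had medians of 1567 and 1855 bases in 5XFAD microglia and 1290 and 1645 in WT microglia, where all 5288 had 921.5 and 1195.5, and 779 and 1021. In WT total cells all 5288 had medians of 538 and 469 bases. The 63 were thus long in every microglia list. The call itself selects regions that are short in WT total cells, so that part is no separate result. Whether long regions are called more readily was not tested. The 63 and 12 calls became 17 and 0 without centring, 36 and 3 with the widest peak of each region, 21 and 3 without trend, and 33 and 6 at a score of at least 50.

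Peaks near microglia markers and neuron markers summed higher in 5XFAD than in WT total cells, while the sums for other cell types overlapped. Of the 14 microglia markers with a known start, 6 and 3 had a peak within 2 kb in 5XFAD total cells, against 0 and 1 in WT total cells, and their peaks summed to 1830 and 907 bases against 0 and 370. In 5XFAD total cells those peaks were at P2ry12, P2ry13 and Sall1 in both libraries and at Cx3cr1, Fcrls and Trem2 in replicate 1, whereas Aif1, C1qb, C1qc, Cd68, Ctss, Irf8, Itgam and Siglech had none in any total cell list. In microglia lists the sums were 9230 and 15727 bases in 5XFAD and 6199 and 12373 in WT. Peaks near the 11 neuron markers also summed higher in 5XFAD total cells, at 1012 and 949 bases against 435 and 559 in WT total cells. The neuron markers with a peak were 2 and 3 against 2 and 2. The sums overlapped between genotypes for astrocyte markers (1731 and 352 against 266 and 657 bases), oligodendrocyte markers (654 and 219 against 610 and 0), vascular markers (408 and 0 against 0 and 253) and markers of other leukocytes (0 and 246 against 0 and 0). Over all 17491 coding genes, 7036 and 5843 had a peak within 2 kb in 5XFAD total cells, against 6128 and 5797 in WT total cells. The part of these markers in the 63 calls was not tested.

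Arhgap18, a GTPase-activating protein, had the largest change in total cells. The region inside it (chr10:26797059-26800127) covered 2604 and 1924 bases in 5XFAD total cells against 226 and 530 in WT total cells (2.37 ± 0.36, limma adjusted p = 0.0173), beside 2627 and 3014 in 5XFAD microglia and 2047 and 2677 in WT microglia. Crbn, the substrate receptor cereblon of an E3 ubiquitin ligase, had 1700 and 1903 bases in 5XFAD total cells against 254 and 319 in WT total cells (2.34 ± 0.28, limma adjusted p = 0.00653), beside 2589 and 2719 in 5XFAD microglia and 2429 and 2511 in WT microglia. The start of Tnfsf10, the death ligand TRAIL, covered 1793 and 1211 bases in 5XFAD against 328 and 189 in WT total cells (2.24 ± 0.27, limma adjusted p = 0.00653), and the region inside Mvp, the major vault protein, 1751 and 1359 against 266 and 261 (2.23 ± 0.24, limma adjusted p = 0.00653). In all 4 regions the genotypes did not overlap in total cells, and the WT total cell lists were the shortest of the 8. These 4 were picked as the largest called changes, so their separation is no support. The shortest coverage over the 5288 regions was 183 and 172 bases in WT total cells, near several of these WT values. Then came a region 19068 bases from Tyrobp, over the non-coding Gm42376 (2.21 ± 0.29), Gm4951 (2.16 ± 0.27), Phf20 (2.11 ± 0.30), a chromatin reader, regions 30832 bases from Cdk19 (2.10 ± 0.33) and 13685 bases from Rap1b (2.06 ± 0.29), and the start of Idnk (2.0 ± 0.30), a gluconokinase, with limma adjusted p of 0.00653 to 0.0189. All 10 stayed called without centring.

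The regions called lower in 5XFAD total cells were led by the start of Abhd11, a mitochondrial hydrolase, with 246 and 219 bases in 5XFAD against 1189 and 489 in WT total cells (-2.04 ± 0.37, limma adjusted p = 0.0297). Cttnbp2nl had 270 and 225 against 923 and 648 bases (-1.97 ± 0.32, limma adjusted p = 0.0218). The region at the shared start of Pcid2, a factor of messenger RNA export, and Cul4a, a cullin of ubiquitin ligases, had 377 and 234 against 937 and 739 bases (-1.81 ± 0.29, limma adjusted p = 0.0218). At all 3 the genotypes did not overlap, which picking by large called changes favours. The shortest coverage over the 5288 regions was 195 and 177 bases in 5XFAD total cells. Snx32, Arhgef2, Gnpda1, Cabyr, Fbxw11 and Sort1, the sorting receptor sortilin, changed by -1.90 to -1.49 (limma adjusted p of 0.0264 to 0.0492). None of the 10 stayed called without centring, with limma adjusted p of 0.0906 to 0.285. With 1 library left out, the 63 and 12 calls became 21 and 2 without microglia 5XFAD replicate 1, 30 and 5 without microglia 5XFAD replicate 2 and again without microglia WT replicate 1, 46 and 7 without microglia WT replicate 2 and 29 and 26 without total cells 5XFAD replicate 1. The microglia libraries enter these calls only through the filter, the centring and the shared estimate of spread.

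**Figure D5:**
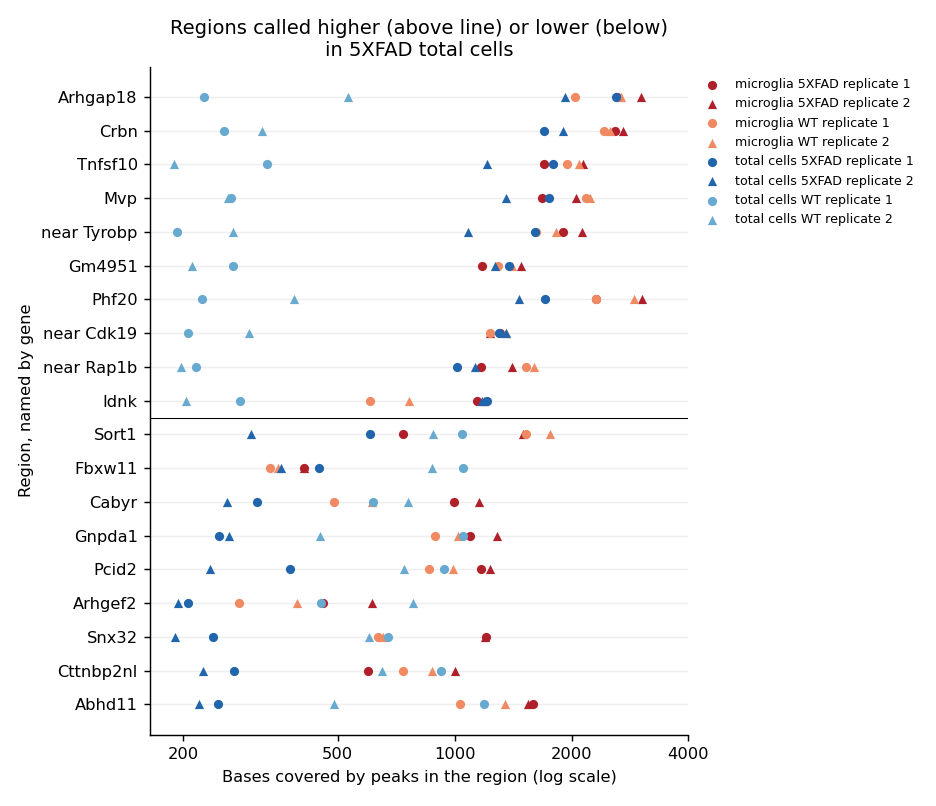
Bases covered by peaks (x axis, log scale) in each of the 8 libraries for regions among the 10 most widened (above the line) and the 10 most narrowed (below the line) in 5XFAD relative to WT total cells after centring. In the upper regions the 5XFAD total cell points (dark blue) lie at 1016 to 2604 bases and the WT total cell points (light blue) at 189 to 530 bases, and the lower regions lost their calls without centring.

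App, the amyloid precursor gene and the mouse counterpart of a 5XFAD transgene, is named here after its values were seen. It held a pair of regions inside it. The first (chr16:85133515-85134891) covered 1020 and 960 bases in 5XFAD total cells against 371 and 191 in WT total cells (1.57 ± 0.32, limma adjusted p = 0.0461, and 0.0906 without centring), beside 1084 and 1377 in 5XFAD microglia and 1135 and 1179 in WT microglia. The second (chr16:85148286-85149427) had 396 and 225 against 260 and 245 bases in total cells (-0.08 ± 0.33, limma adjusted p = 0.929, and 0.24 without centring). Only the first App region thus differed past the threshold, and it did so only after centring.

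Whether genotype acted differently in the preparations was tested as an interaction, 5XFAD minus WT in microglia minus the same in total cells. No region passed in either direction, against 0.00% of all fitted, while 260 and 344 of the 5288 had an unadjusted p under 0.05 (limma). The smallest adjusted p was at Mvp (-2.72 ± 0.35, limma adjusted p = 0.0571), where 5XFAD and WT microglia had 1680 and 2050 against 2182 and 2237 bases, and 5XFAD and WT total cells 1751 and 1359 against 266 and 261. Frmd4a had the largest change of those with the smallest p (-3.30 ± 0.52, limma adjusted p = 0.0603), with 552 and 601 against 1962 and 2242 bases in microglia and 1338 and 566 against 427 and 214 in total cells, opposite directions in the 2 preparations. Tnfsf10, Thada and Gm4951 followed on the lower side (-2.56 to -2.42, limma adjusted p of 0.0603) and Snx32, Cabyr, Zfp146, Pcid2 and Arhgef2 on the higher side (1.95 to 2.57, limma adjusted p of 0.0648 to 0.111). In this fit of all 10463 regions, the genotype differences in the preparations are thus not shown to differ at any region. Other settings did give calls, with 1 higher and 13 lower when only regions of all 8 lists were fitted and 0 and 1 at a score of at least 50. They were 1 higher and 25 lower without total cells WT replicate 1, and 1 and 21 without total cells WT replicate 2.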

How the data were processed

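H4K12la CUT&Tag was analysed in 8 libraries, in 4 groups of 2 read from the titles. The submitters' processing notes name fastp 0.19.6, Bowtie2, deepTools and the build GRCm38 (mm10). How peaks were called, at what threshold and against what control is not given in the sources used here. Each library has 1 peak list deposited by the authors, with a whole-number score per peak, of unstated unit and never below 20, which served here for ranks and a minimum inside each list. Starts in the deposited lists were taken as counted from 0 and printed counted from 1.

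Lists were merged where peaks overlapped by 1 base. Covered bases are the summed lengths of a library's peaks in a region. Log2 covered bases, with no pseudocount and centred on the library's median over regions of all 8 lists, were fitted with limma 3.58.1 (R 4.3.3, trended variance, 4 group means, absent libraries left missing) over 10463 regions with a peak in at least 6 lists and in each group, with Benjamini-Hochberg adjustment over all of them and a threshold of 0.05. A fold above 1 thus reads as wider peaks, not as more signal. The fit was checked on simulated data. Gene positions and promoter sequences came from RefSeq tables of GRCm38.p6. Chromosome 18 was left out of start-site shares.

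The members, gene lists (24), motifs (10) and tests were chosen with earlier results of these data known, so patterns already seen in them are no independent support. Named regions are the 10 of highest mean score percentile, the 10 longest and 5 shortest by bases common to all lists, per comparison the 10 largest called changes in each direction (or, with fewer than 5, the 5 smallest p), and list members. Any pair of lists shared at most 193 exact intervals, and every library was kept as separate. Alternatives changed the overlap rule, the score minimum, list length, windows, centring, width measure, trend, a replicate block and each library in turn. A few named regions are not reported here.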

Additional observations from a re-analysis of the deposited data

How the results depend on the processing

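The number of regions stayed within 1.5 times 5288 when a base common to all lists was required (4737), when peaks within 500 bases were merged (5390) and with equal list lengths (4566), and fell to 3232 at a score of at least 50. Without 1 library it ran from 5267 to 6333. The share within 2 kb of a start site, 50.9%, became 57.2% at a score of at least 50, 52.4% with equal list lengths and 53.1% with a 5 kb window, and 47.2% to 51.1% without 1 library. Genes near a region numbered 2872, 2815 with a 1 kb window and 2553 with equal list lengths, and histone acylation enzymes fell from 8 to 4 with equal list lengths. For microglia minus total cells, only centring moved the counts by over 1.5 times among settings that kept all libraries, to 2574 wider and 15 narrower, and without 1 library they ran from 393 to 699 and from 266 to 690. For 5XFAD minus WT in total cells the counts of 63 and 12 became 17 and 0 without centring, 36 and 3 with the widest peak, 21 and 3 without trend, and 33 and 6 at a score of at least 50, and ran from 21 to 76 and from 2 to 26 without 1 library. In microglia the counts by genotype were 0 and 0 in every setting except without total cells WT replicate 2 (1 and 2). The interaction gave 1 and 13 calls when only regions of all 8 lists were fitted, 0 and 1 at a score of at least 50, and 0 to 1 and 0 to 25 without 1 library, with 25 lower without total cells WT replicate 1 and 21 without total cells WT replicate 2. The cause of these moves was not tested, beyond the fewer libraries or regions fitted. None of the regions named by rank in a comparison changed sign in any setting run on them. Among regions of the gene lists, which were recomputed without centring only, 21 of 52 called relatively narrower changed sign, Zfp788 (0.14) and Lars2 (0.01) among them, and so did the second App region by genotype in total cells (0.24).

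Replicate numbers are shared by the groups. Deviations of same-numbered libraries from their group means correlated at 0.116 within microglia, 0.051 within total cells and -0.0275 to 0.01 across preparations. With 2 libraries a group these deviations mirror each other. The low values thus cannot tell whether same-numbered libraries came from the same animal or suspension. With a replicate block, calls were 652 wider and 587 narrower for microglia minus total cells, 51 and 6 for 5XFAD minus WT in total cells, 0 and 0 in microglia and 0 and 4 for the interaction.

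Widths of 2 libraries a group limit the genotype comparisons, and the lists give no depth with which to weigh a missing or short peak.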

Other observations

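Some shared regions lay outside annotated genes and still ranked near the top of every list. Of these the highest, 19352 bases from Pip4k2a (chr2:18820949-18822902), ranked at a mean percentile of 99.4 ± 0.392 by score (SD, n = 8) and covered 1402 and 1668 bases in 5XFAD microglia, 1876 and 1954 in WT microglia, 1347 and 1395 in 5XFAD total cells and 1194 and 1083 in WT total cells. A short region over the non-coding Gm36876 (chr11:109011648-109012080) was nearly as constant in width as that of Lars2, at 405 to 433 bases in microglia lists and 411 to 428 in total cell lists, with a mean percentile of 99.4 ± 0.946 (SD, n = 8). Of the 8 shared regions on unplaced contigs, 7 lay on JH584304. Ube3a, an imprinted ubiquitin ligase gene, had its start in a region of mean percentile 99.4 ± 0.35 (SD, n = 8), with 928 and 1655 bases in 5XFAD microglia, 1369 and 1502 in WT microglia, 1385 and 1303 in 5XFAD total cells and 860 and 794 in WT total cells.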
